A study of Mus musculus with 6 samples.

Results

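The genes described here are 9 genes of JAK-STAT signalling: the kinase gene Jak2, the transcription factor genes Stat2, Stat3, Stat5a, Stat5b and Stat6, and the feedback inhibitor genes Socs1, Socs2 and Socs3. They were taken by name from the 57132 gene rows of 1 count table, with earlier results of these data known, so counts over the 9 genes are a description. All 9 were among the 19927 genes with enough counts to be tested. The table covers RNA sequencing of isolated mouse glomeruli, the capillary tufts that filter blood in the kidney. Every sample, controls included, is labelled DKD, for diabetic kidney disease, and is Setdb2fl/fl, with floxed Setdb2 alleles. Cre recombinase, which deletes floxed sequence, was lacking in the 3 Cre_negative samples (Cre-/Setdb2fl/fl) and carried by the 3 Cre_positive samples (Cre+/Setdb2fl/fl). Going by the series' title and design text, the comparison addresses what SETDB2, a putative histone H3 lysine 9 methyltransferase, does in podocytes, the epithelial cells on the outside of the glomerular capillaries. The sources used here do not give the Cre driver, the model of diabetes, or the age and sex of the animals.

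Cytokines and hormones bind receptors that have no enzyme activity of their own and that carry Janus kinases (JAKs) on their cytoplasmic tails. The activated kinase phosphorylates STAT proteins, which pair, enter the nucleus and switch on target genes. SOCS genes are among those targets, and their proteins bind the receptor or the kinase and damp the signal, so a SOCS transcript is often read as a trace of recent signalling. In the kidney, JAK-STAT signalling is known from tubular injury, from the response of tubules to growth hormone and prolactin, and from inflammation in diabetic kidney disease.

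The libraries held between 53571438 and 58807042 counts. Setdb2, the targeted gene, had 370 to 591 counts in Cre_negative and 391 to 444 in Cre_positive libraries, with a log2 fold change of -0.12 (SE 0.18, edgeR adjusted p = 0.738), so its gene-level counts do not check the genotype labels. Cre_positive replicate 2 stood apart by Xist, the RNA of the inactive X chromosome, with 24 counts against 36474 to 47632 in the other libraries. Kdm5d, Eif2s3y, Uty and Ddx3y, all on the Y chromosome, were at 0 in every library, this one included. For the single genes named by rule, calls that change without this library are given with and without it. Most counts of genes called within a list, and those of cell type markers, are given with it alone. The glomerular markers were present: the 7 podocyte markers, Nphs1 among them, summed to 566 to 667 CPM, counts scaled to library size, in Cre_negative and 741 to 827 CPM in Cre_positive libraries. Tubule RNA was abundant as well, with 7 proximal tubule markers at 5995 to 6974 and 9321 to 10054 CPM. Nothing in the labels ties each replicate to a mouse of its own; the p-values therefore reflect the spread among these samples, which may be technical.

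The sequence before the start of transcription is shown for 4 of the genes, because 3 of them, Socs3, Stat2 and Stat3, were the ones that fell, and Socs1 carries the interferon type of element without having passed the test. Each run is the 250 bases before the annotated start, 5′ to 3′ on the gene's own strand, from RefSeq on build GRCm38.p6, an older build than the GRCm39 that the submitters' processing notes name. RefSeq promoters were matched by symbol for 8 of the 9 genes, and Socs2 was not matched. Capitals mark matches to 3 motifs: TTCNNNGAA, the palindrome that most STAT dimers bind; TTCNNNNGAA, the wider palindrome preferred by STAT6; and GAAANNGAAA on either strand, the core of the interferon-stimulated response element.
Socs3 promoter, chr11:117969367-117969616, minus strand: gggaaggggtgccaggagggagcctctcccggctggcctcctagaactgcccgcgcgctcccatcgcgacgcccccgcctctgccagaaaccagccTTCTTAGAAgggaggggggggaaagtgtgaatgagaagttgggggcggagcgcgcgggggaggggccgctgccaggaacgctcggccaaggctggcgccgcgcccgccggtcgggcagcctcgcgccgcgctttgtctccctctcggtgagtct
Stat3 promoter, chr11:100939541-100939790, minus strand: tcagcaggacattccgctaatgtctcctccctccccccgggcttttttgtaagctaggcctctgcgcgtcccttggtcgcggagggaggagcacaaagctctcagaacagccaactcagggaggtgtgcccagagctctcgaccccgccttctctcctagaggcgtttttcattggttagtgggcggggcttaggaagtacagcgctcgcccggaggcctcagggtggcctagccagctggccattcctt
Stat2 promoter, chr10:128270248-128270497, plus strand: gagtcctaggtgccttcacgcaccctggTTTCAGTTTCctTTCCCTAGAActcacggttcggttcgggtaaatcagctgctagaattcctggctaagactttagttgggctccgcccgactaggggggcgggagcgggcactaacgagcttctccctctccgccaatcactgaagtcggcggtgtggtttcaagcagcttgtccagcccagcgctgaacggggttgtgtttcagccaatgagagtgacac
Socs1 promoter, chr16:10785537-10785786, minus strand: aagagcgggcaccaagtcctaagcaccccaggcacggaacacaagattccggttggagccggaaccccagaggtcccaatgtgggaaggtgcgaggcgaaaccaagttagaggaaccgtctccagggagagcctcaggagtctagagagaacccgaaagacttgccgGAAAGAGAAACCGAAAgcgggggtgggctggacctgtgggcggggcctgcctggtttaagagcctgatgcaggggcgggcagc

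The Socs3 window held TTCTTAGAA, which begins 154 bases before the start. The Stat2 window held TTTCAGTTTC, the element on the reverse strand, beginning 222 bases before the start, and TTCCCTAGAA beginning 210 bases before it. The Socs1 window held GAAAGAGAAA and GAAACCGAAA, beginning 83 and 77 bases before the start, which overlap by a shared GAAA. No match to these letters was found in the window shown for Stat3, nor in those of Jak2, Stat5a, Stat5b and Stat6. Among all 32851 promoter windows of the same length, 7.02% held TTCNNNGAA, 5.85% TTCNNNNGAA and 2.98% GAAANNGAAA. A match describes the letters and was not tested as a binding site.

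Stat3, Stat2 and Socs3 fell in the Cre_positive libraries, Stat5b rose, and Jak2, Stat5a, Stat6, Socs1 and Socs2 did not pass the test. Each gene was tested between genotypes by the quasi-likelihood test of edgeR, and called at a Benjamini-Hochberg adjusted p under 0.05, adjusted over the whole table. By that rule 4 of the 9 genes were called, where 7.55% of all genes tested were; 3 were lower (3.82% of all genes) and 1 was higher (3.73%). The CPM ranges of the genotypes did not overlap for the same 4 genes, against 29.7% of all genes tested. The median log2 fold change of the 9 genes was -0.13, and that of all genes tested was -0.00089. In whole glomerular isolates, fewer cells of a type and less RNA per cell cannot be told apart.

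**Figure D1:**
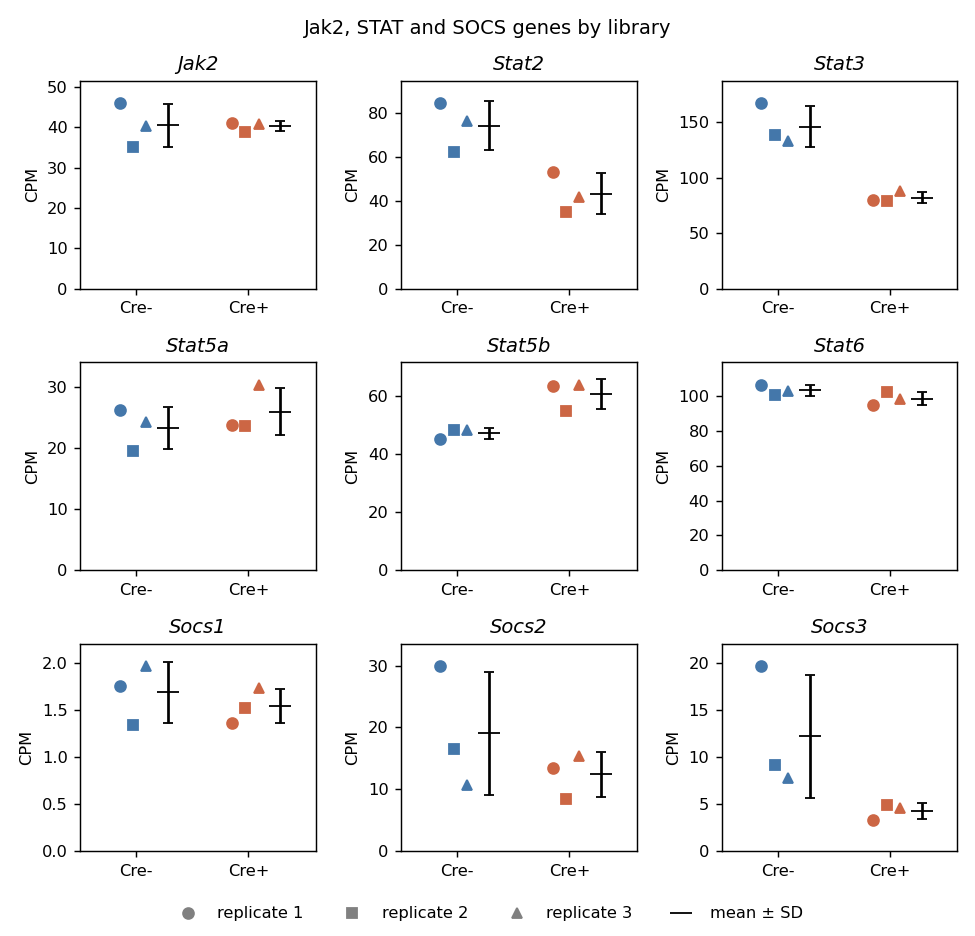
Level of each of the 9 genes in every library, in CPM on a linear axis from 0 that differs between panels, with Cre_negative (Cre-) in blue, Cre_positive (Cre+) in orange, a marker shape for each replicate and black bars for the mean ± SD (n = 3). Stat2, Stat3 and Socs3 lie lower in every Cre_positive library than in any Cre_negative one, and Stat5b lies higher.

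Jak2 encodes the kinase that works on the receptors of growth hormone, prolactin and erythropoietin. It had 46.0, 35.1 and 40.4 CPM in Cre_negative replicates 1, 2 and 3 and 41.2, 39.0 and 40.9 CPM in the Cre_positive ones. The Cre_positive values lay inside the Cre_negative range. The log2 fold change was -0.01 (SE 0.10, adjusted p = 0.984), with a 95% confidence interval of -0.24 to 0.23, so changes beyond 0.848 to 1.17 times the Cre_negative level lie outside it.

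Stat3 encodes the factor that interleukin-6 family cytokines activate through the shared receptor gp130. Its levels were 167, 138 and 133 CPM in Cre_negative replicates 1, 2 and 3 and 79.7, 79.1 and 87.7 CPM in the Cre_positive ones. Every Cre_positive library lay well under the lowest Cre_negative one, and Cre_negative replicate 1 was the highest. The means of 146 ± 18.4 and 82.2 ± 4.80 CPM (SD, n = 3) gave an edgeR log2 difference of -0.83 (SE 0.097, 95% confidence interval -1.05 to -0.61, adjusted p = 0.00223). Stat3 passed without any 1 of the libraries (adjusted p between 0.00204 and 0.0190), and it was the single gene of the 9 that did.

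Stat2 encodes the partner that joins IRF9 in ISGF3, the complex that type I interferons activate. It had 84.4, 62.3 and 76.1 CPM in Cre_negative replicates 1, 2 and 3 and 53.2, 34.9 and 42.0 CPM in the Cre_positive ones. The groups did not overlap, with Cre_positive replicate 1 nearest to the Cre_negative libraries. The log2 fold change was -0.78 (SE 0.17, 95% confidence interval -1.17 to -0.38, adjusted p = 0.0341). The call ended without Cre_negative replicate 1 (adjusted p = 0.0985) or 3 (0.0705) and without Cre_positive replicate 2 (0.0819) or 3 (0.130), while the log2 fold change stayed between -0.95 and -0.64.

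Stat5a and Stat5b encode near-identical factors that growth hormone, prolactin and erythropoietin activate. Stat5b rose from 45.1, 48.2 and 48.4 CPM in Cre_negative replicates 1, 2 and 3 to 63.4, 55.0 and 64.0 CPM in the Cre_positive ones. All 3 Cre_positive libraries were higher, replicate 2 least so. The log2 fold change was 0.36 (SE 0.082, 95% confidence interval 0.18 to 0.55, adjusted p = 0.0315). The call ended without Cre_negative replicate 1 (adjusted p = 0.0771) or 2 (0.0693) and without Cre_positive replicate 1 (0.116) or 3 (0.137). Stat5a stood at 26.1, 19.5 and 24.2 CPM in the Cre_negative replicates and at 23.7, 23.6 and 30.4 CPM in the Cre_positive ones. Its groups overlapped, and the log2 fold change of 0.15 (SE 0.14, adjusted p = 0.572) had an interval of -0.17 to 0.47 that includes the value of Stat5b. Whether the genes differ in their change was not tested. Of the stretches of 50 bases in the longest GENCODE transcript of each, 10.8% of Stat5a and 8.15% of Stat5b occur in the other, so the split of reads between them is uncertain in part.

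Stat6 encodes the factor of interleukin-4 and interleukin-13 signalling. It was the steadiest of the STAT genes, at 106.8, 100.7 and 102.9 CPM in Cre_negative and 95.1, 102.7 and 98.3 CPM in Cre_positive libraries. The groups overlapped, and the log2 fold change of -0.07 (SE 0.065, adjusted p = 0.583) had a 95% confidence interval of -0.22 to 0.08.

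Socs3 encodes the inhibitor that binds gp130 and its kinases and limits STAT3 signalling. It had 19.7, 9.20 and 7.77 CPM in Cre_negative replicates 1, 2 and 3 and 3.36, 4.90 and 4.62 CPM in the Cre_positive ones. The groups did not overlap, and Cre_negative replicate 1 stood at more than the level of the other Cre_negative libraries together. The means were 12.2 ± 6.50 and 4.29 ± 0.822 CPM (SD, n = 3), and the log2 fold change was -1.51 (SE 0.36, 95% confidence interval -2.35 to -0.67), with an adjusted p of 0.0481 just under the threshold. The call ended without Cre_negative replicate 2 (adjusted p = 0.0619), without Cre_positive replicate 1 (0.155), 2 (0.126) or 3 (0.146), without a filter on low counts (0.0646) and with the replicate number as a block (0.0970). Without Cre_negative replicate 1 the log2 fold change was -0.98 (adjusted p = 0.0369).

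Socs1 and Socs2 did not pass. Socs1, which encodes the inhibitor of interferon receptor kinases, was the lowest of the 9 genes, at 73 to 111 counts per library. It had 1.76, 1.34 and 1.97 CPM in Cre_negative and 1.37, 1.53 and 1.73 CPM in Cre_positive libraries. These ranges overlapped, and the log2 difference was -0.13 (SE 0.27, adjusted p = 0.821) with a wide 95% confidence interval of -0.76 to 0.49. Socs2 encodes an inhibitor of growth hormone receptor signalling. It ranged from 10.7 to 29.9 CPM within the Cre_negative libraries and from 8.43 to 15.4 CPM within the Cre_positive ones. The highest value was again that of Cre_negative replicate 1. The log2 fold change of Socs2 was -0.61 (SE 0.41, adjusted p = 0.440), with an interval of -1.61 to 0.38.

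The log2 ratio of Socs3 to Stat3 CPM set the feedback gene against the factor within each library. For replicates 1, 2 and 3 it was -3.08, -3.90 and -4.09 without Cre and -4.55, -4.00 and -4.24 with Cre. The ranges overlapped, since Cre_positive replicate 2 lay above Cre_negative replicate 3. The difference of -0.57 had p = 0.2 in a two-sided exact permutation test, where 0.1 is the smallest p that 3 against 3 samples allow, so a larger fall of Socs3 than of Stat3 was not shown. The same exact test on single genes gave p = 0.1 for Stat2, Stat3, Stat5b and Socs3. Its exact p was 0.2 for Stat6, 0.4 for Socs2, 0.6 for Socs1 and Stat5a and 1 for Jak2.

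Levels were compared between genes as CPM per kilobase of exon. The length merges the annotated exons of all transcripts of a gene. In the Cre_negative libraries Stat6 was the highest at 23.5 ± 0.695 CPM per kilobase (SD, n = 3), followed by Stat3 at 15.3 ± 1.93 and Stat2 at 12.5 ± 1.88, whose ranges overlapped. Stat5b at 8.53 ± 0.329 and Jak2 at 8.05 ± 1.08 CPM per kilobase overlapped too. Socs3 (4.22 ± 2.25), Stat5a (3.26 ± 0.478) and Socs2 (2.00 ± 1.04 CPM per kilobase) had overlapping ranges, although Socs2 was under both of the others in each of the 3 libraries, and Socs1 was the lowest at 0.582 ± 0.110. The place of Socs2 depends on the length used, as its merged exons span 9531 bases and its longest transcript 4242. In CPM without that scaling, Socs2 was above Socs3 in each of the 3 libraries. It was above Stat5a in replicate 1 alone (29.9 against 26.1 CPM). In the Cre_positive libraries Stat6 still led at 22.4 ± 0.870 CPM per kilobase. Stat5b came next at 11.0 ± 0.912, ahead of Stat3 at 8.62 ± 0.504, Jak2 at 8.02 ± 0.242 and Stat2 at 7.31 ± 1.56, and the range of Stat2 took in those of Jak2 and reached into that of Stat3. Per kilobase of merged exons, Stat3 exceeded Stat5b in each of the 3 Cre_negative libraries, and Stat5b exceeded Stat3 in each of the 3 Cre_positive ones. The Cre_positive order depends on the length used. Merged exons span 9527 bases for Stat3 and 5539 for Stat5b, while their longest transcripts have 6042 and 5213. In CPM without scaling by length, Stat3 was above Stat5b in every Cre_positive library too (79.7, 79.1 and 87.7 against 63.4, 55.0 and 64.0). Stat5a followed at 3.63 ± 0.541 CPM per kilobase, and Socs3 (1.48 ± 0.284) and Socs2 (1.31 ± 0.381) overlapped above Socs1 (0.531 ± 0.0628).

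**Figure D2:**
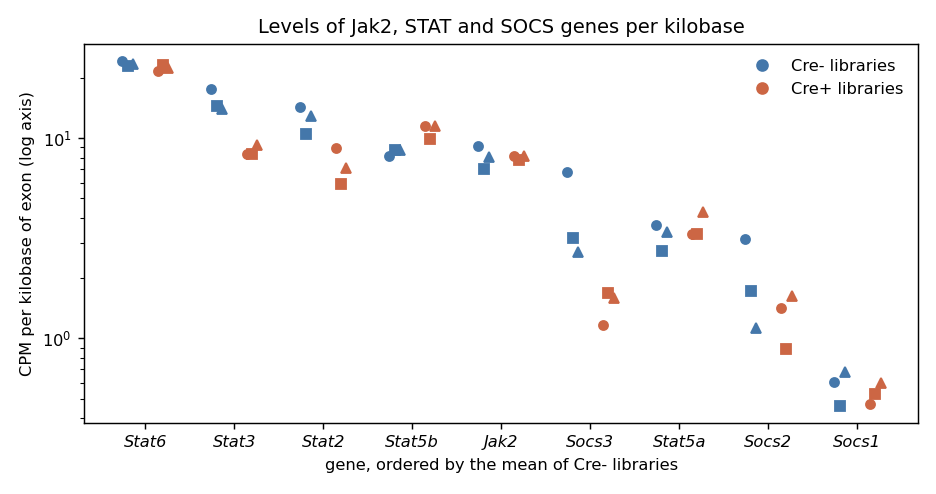
CPM per kilobase of exon on a log axis for each library, with genes ordered by the Cre_negative mean, Cre_negative libraries in blue and Cre_positive ones in orange. Stat6 leads in both genotypes. With the merged exon lengths used here, Stat3 and Stat5b change places between Cre_negative (15.3 and 8.53) and Cre_positive (8.62 and 11.0). In CPM without scaling by length, Stat3 is higher than Stat5b in every library.

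Outside the 9 genes, 118 further genes of the pathway were taken as lists by role, of which 100 were tested; 19 fell, 5 rose and 76 did not pass. Their median log2 fold change was -0.23. Calls numbered 9 without Cre_positive replicate 2 and 7 without Cre_positive replicate 3. Among the genes named below, Lif, Clcf1, Jak3, Chil3, Gbp2 and Psmb9 passed whichever library was left out.

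Among the ligands, 2 cytokines that act through gp130 fell, Lif and Clcf1. Of 20 ligand genes 11 were tested, 2 fell, none rose and 9 did not pass, with a median of -0.33; the 9 untested ones, Il6 and Osm among them, had at most 20 counts in any library. Lif encodes leukaemia inhibitory factor and had 11.0, 5.40 and 5.53 CPM in Cre_negative replicates 1, 2 and 3 and 0.713, 0.860 and 0.540 CPM in the Cre_positive ones. The Cre_positive libraries held a small part of the lowest Cre_negative level, and the log2 fold change was -3.37 (SE 0.36, adjusted p = 0.00155). Clcf1, whose product signals through the ciliary neurotrophic factor receptor, had 33.2, 28.1 and 23.5 CPM in Cre_negative and 10.5, 10.2 and 11.7 CPM in Cre_positive libraries. Its groups were far apart as well, and the log2 difference was -1.39 (SE 0.14, adjusted p = 0.00110).

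Receptor genes moved in both directions. Of 26 receptor genes 24 were tested, 2 fell, 2 rose and 20 did not pass, with a median of -0.10. Osmr, the oncostatin M receptor chain that pairs with gp130, averaged 31.2 ± 6.27 CPM without and 19.7 ± 2.02 CPM with Cre (SD, n = 3), a log2 difference of -0.66 (SE 0.15, adjusted p = 0.0348). Csf2rb, the shared chain of the interleukin-3, interleukin-5 and GM-CSF receptors, changed by -1.07 (SE 0.20, adjusted p = 0.0149). Il11ra1, the interleukin-11 receptor chain, changed by 0.64 (SE 0.11, adjusted p = 0.0117) and Cntfr, the ciliary neurotrophic factor receptor, by 0.84 (SE 0.17, adjusted p = 0.0233). Mouse Il11ra1 and Csf2rb have near-identical copies, so their counts are uncertain. With single libraries left out, Osmr passed without Cre_negative replicate 2 alone (adjusted p up to 0.136 otherwise). Csf2rb (up to 0.0782) and Cntfr (up to 0.109) failed whichever Cre_positive library was left out, and Il11ra1 failed without Cre_positive replicate 2 (0.0563) or 3 (0.0625).

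**Figure D3:**
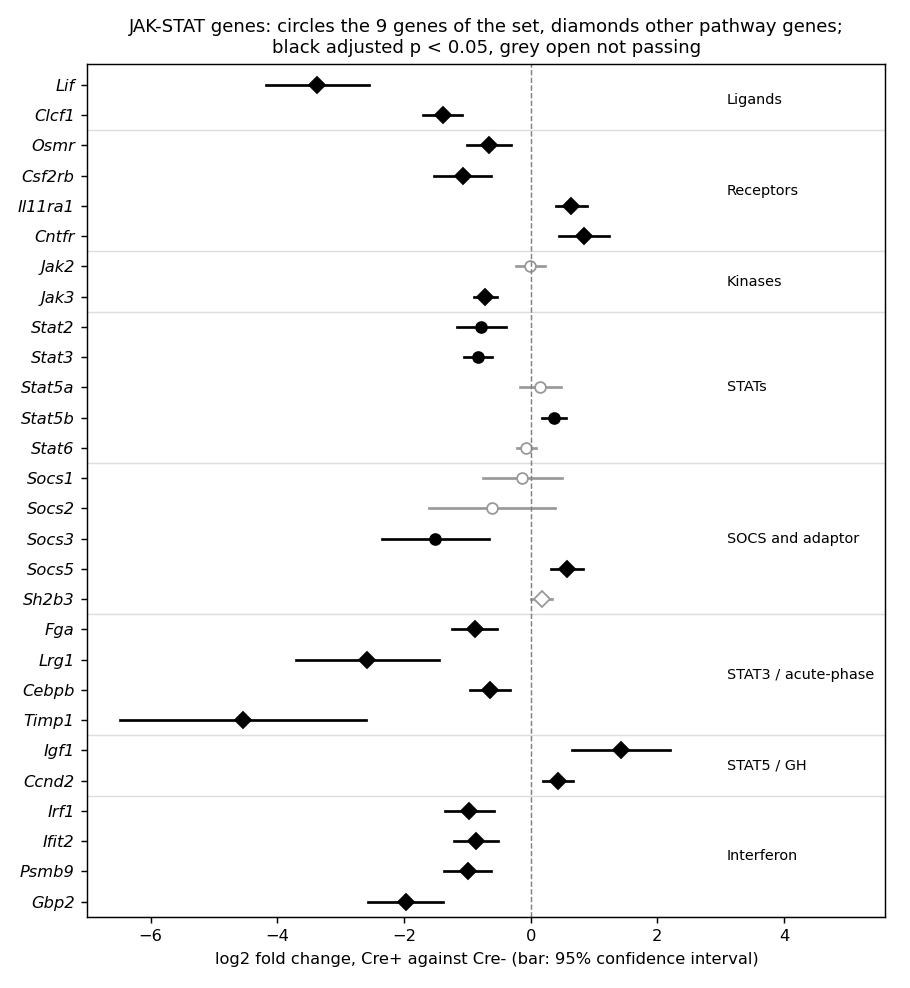
Fitted log2 fold change of Cre_positive against Cre_negative with its 95% confidence interval for the 9 genes (circles) and for other pathway genes named by rule (diamonds, Chil3 left out for its near-zero counts), grouped by role, with filled black symbols past the adjusted p of 0.05 and open grey ones not. Lif (-3.37) and Timp1 (-4.54) lie farthest to the left, and Igf1 (1.43) farthest to the right.

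Jak3, the Janus kinase of the shared gamma chain cytokine receptors, fell. It had 50.7, 52.8 and 45.8 CPM in Cre_negative replicates 1, 2 and 3 and 30.9, 30.0 and 30.0 CPM in the Cre_positive ones. The groups were clearly apart, and the log2 difference was -0.71 (SE 0.080, adjusted p = 0.00186). The Janus kinase genes Jak1 at -0.15 (adjusted p = 0.370) and Tyk2 at -0.08 (adjusted p = 0.689) did not pass. Both are named outside the rule for named genes. Of the 5 other SOCS family genes, Socs5, which encodes an inhibitor of cytokine and growth factor receptor signalling, rose from 31.4 ± 4.15 to 46.7 ± 2.96 CPM (SD, n = 3), or by 0.57 on the log2 scale (SE 0.11, adjusted p = 0.0166), and 4 did not pass. Socs5 did not pass when Cre_positive replicate 1 (adjusted p = 0.0687) or 3 (0.0779) was left out. None of 10 further negative regulators, the PIAS proteins and tyrosine phosphatases among them, passed in edgeR's test; 1 had an unadjusted p under 0.05, and none passed with DESeq2. Sh2b3, the adaptor that restrains JAK2, had the smallest p, with a log2 difference of 0.17 (SE 0.072, adjusted p = 0.186). The share of all genes tested with an unadjusted p under 0.05 is not given, so counts at that cut, here and below, lack a background.

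Of 19 STAT3 and acute-phase target genes 18 were tested, 5 fell, none rose and 13 did not pass, with a median of -0.89. An unadjusted p under 0.05 was found for 13 of the 18, a count with no share of all genes beside it. With DESeq2, which called 2697 genes over the whole table, 11 passed. Nfil3, described further below, went up without passing edgeR's test (log2 fold change 1.10, adjusted p = 0.0947), and it is among the 11. Cebpd (0.08) and Il1r1 (0.02) also lay above 0. Fga, a fibrinogen chain, averaged 64.6 ± 15.1 CPM without and 35.1 ± 1.97 CPM with Cre (SD, n = 3), a log2 difference of -0.88 (SE 0.15, adjusted p = 0.0142). The secreted glycoprotein gene Lrg1 changed by -2.58 (SE 0.49, adjusted p = 0.0200), the transcription factor gene Cebpb by -0.65 (SE 0.14, adjusted p = 0.0277) and the metalloproteinase inhibitor gene Timp1 by -4.54 (SE 0.82, adjusted p = 0.0213). Bcl3, a nuclear regulator of NF-kB and the fifth gene called, changed by -1.09 (SE 0.25, adjusted p = 0.0315). With any single Cre_positive library left out, none of these 5 passed: the largest adjusted p was 0.0678 for Fga, 0.0992 for Lrg1, 0.107 for Cebpb, 0.106 for Timp1 and 0.127 for Bcl3. Lrg1 (0.0547) and Cebpb (0.0578) also failed without Cre_negative replicate 2, and Bcl3 (0.0536) without Cre_negative replicate 1. These genes respond to other factors besides STAT3.

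Among interferon targets 7 of 15 genes fell, and among STAT5 targets 2 of 7 tested genes rose. Of the 15 genes that hold partners or targets of ISGF3, all were tested, none rose and 8 did not pass, with a median of -0.97. An unadjusted p under 0.05 was found for 14 of the 15, and 13 passed with DESeq2. Rsad2, named outside the rule, is counted in both and went up (edgeR log2 fold change 0.33). The count at the unadjusted cut has no share of all genes beside it, and the 7.55% called after adjustment is not that share. Gbp2, an interferon-induced GTPase, changed by -1.97 (SE 0.25, adjusted p = 0.00695), the antiviral gene Ifit2 by -0.87 (SE 0.15, adjusted p = 0.0146) and the transcription factor gene Irf1 by -0.97 (SE 0.17, adjusted p = 0.0148). Psmb9, an immunoproteasome subunit gene, averaged 16.0 ± 2.66 CPM without and 8.04 ± 1.08 CPM with Cre (SD, n = 3, adjusted p = 0.0101). Irf1 did not pass once a Cre_positive library was left out (adjusted p between 0.0601 and 0.0726), nor did Ifit2 without Cre_positive replicate 2 (0.0599) or 3 (0.0726). Isg15 and Ifit1, named outside the rule, also lost their calls without Cre_positive replicate 2. Of the 7 interferon genes called, Gbp2, Psmb9 and Irf7, the last named outside the rule, were the ones that stayed called without that library. Of 8 STAT5 and growth hormone targets 7 were tested, none fell and 5 did not pass, with a median of 0.05. Igf1, the growth factor that growth hormone induces, had 6.49, 7.66 and 15.3 CPM in Cre_negative and 30.6, 23.4 and 24.9 CPM in Cre_positive libraries. All 3 Cre_positive values were higher, and Cre_negative replicate 3 lay nearest to them; the log2 fold change was 1.43 (SE 0.33, adjusted p = 0.0490). The cyclin gene Ccnd2 changed by 0.43 (SE 0.10, adjusted p = 0.0424). Igf1 passed without Cre_negative replicate 3 alone among the 6 libraries left out in turn (adjusted p up to 0.139 otherwise, and 0.0942 without a filter on low counts). Ccnd2 likewise passed without Cre_negative replicate 2 alone (up to 0.157 otherwise, and 0.0592 with limma voom).

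Of 10 STAT6 and alternative activation targets, 5 were tested, and Chil3, which encodes a chitinase-like protein of macrophages, was the single one called. Its counts were 117, 79 and 56 in the Cre_negative libraries and 0, 4 and 0 in the Cre_positive ones (adjusted p = 0.00645). The other 4 did not pass, among them the macrophage mannose receptor gene Mrc1 at -0.46 (adjusted p = 0.595), named outside the rule. The 5 untested genes, Arg1 and Retnla among them, had at most 23 counts in any library.

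**Figure D4:**
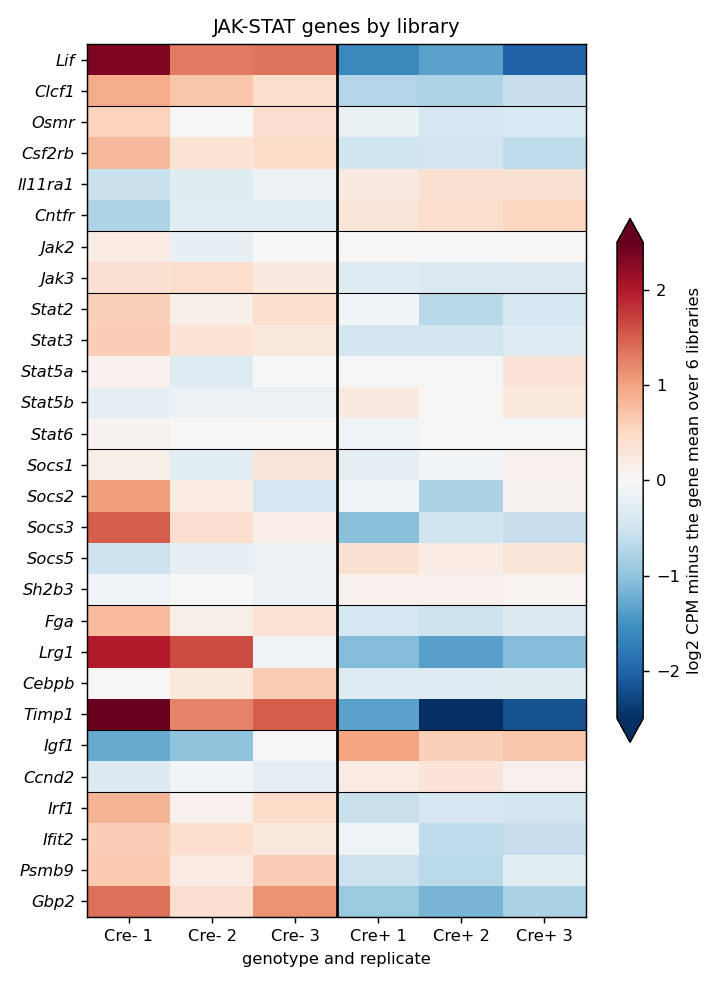
Log2 CPM minus the gene's mean over the 6 libraries, one row per gene grouped as ligands, receptors, kinases, STAT genes, SOCS genes with an adaptor, and targets of STAT3, STAT5 and interferon, and one column per library, with Cre_negative (Cre-) left of the black line and Cre_positive (Cre+) right. Lif, Socs3, Lrg1 and Timp1 are highest in Cre_negative replicate 1, and Igf1 is lowest there at 6.49 CPM.

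Markers of several cell types also differed between the genotypes. By the same rule 3.73% of all genes tested rose and 3.82% fell. The 7 injured epithelium markers summed to 779.9, 345.7 and 261.0 CPM in Cre_negative replicates 1, 2 and 3 and to 137.8 to 170.6 CPM in the Cre_positive libraries; 5 of 7 fell, and none was at 0 in every library. The order of the Cre_negative libraries was the same for Stat3 and Socs3, with replicate 1 highest and replicate 3 lowest. The order of the Cre_positive libraries was not. There the injured epithelium sums were 146.5, 170.6 and 137.8 CPM for replicates 1, 2 and 3. Stat3 was lowest in replicate 2 and highest in replicate 3. Socs3 was also highest in replicate 2 but lowest in replicate 1. The 8 macrophage markers summed to 334.8, 184.0 and 277.9 CPM in Cre_negative replicates 1, 2 and 3 and to 168.4 to 183.7 CPM in the Cre_positive ones, and 2 of 8 fell. Stat2 followed that order among the Cre_negative libraries, with replicate 2 lowest. Among the Cre_positive libraries it did not, as Stat2 was lowest in replicate 2, where the macrophage sum was highest at 183.7 CPM. Of the 8 T cell, B cell and neutrophil markers none of the 6 tested passed in edgeR's test, 2 had an unadjusted p under 0.05 and 1 passed with DESeq2; their sum was 14.5 to 32.4 CPM in Cre_negative and 19.2 to 24.5 CPM in Cre_positive libraries. Stat5b rose alongside markers of several cell types. Of the 7 glomerular endothelial markers 6 rose, with a sum of 366 to 398 CPM in Cre_negative and 553 to 599 CPM in Cre_positive libraries. Of the 5 mesangial markers 3 rose. Of the 7 markers of loop, distal tubule and collecting duct 4 rose, as did 4 of the 7 proximal tubule markers. Of the 7 podocyte markers 2 rose and 1 fell. Of the other proximal tubule markers none passed, and Slc22a6 had a log2 difference of -0.71 (adjusted p = 0.0553). The part of these cell types in the results for the 9 genes was not tested.

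**Figure D5:**
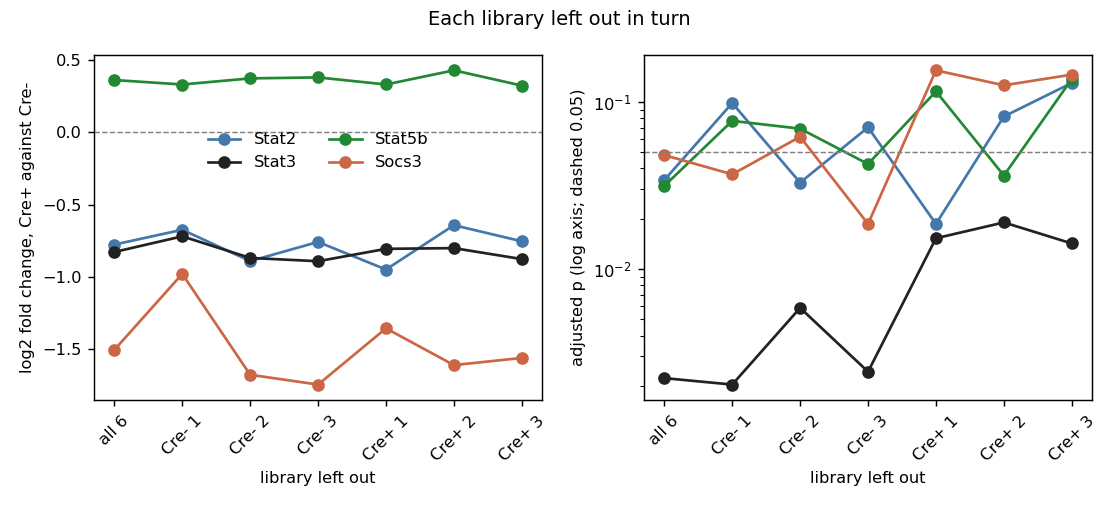
Log2 fold change (left) and adjusted p on a log axis (right) of Stat2, Stat3, Stat5b and Socs3 with all 6 libraries and with each library left out in turn, named on the horizontal axis, with the threshold of 0.05 dashed. The direction of all 4 genes is the same in every fit, and Stat3 alone stays under the threshold, at up to 0.0190.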

How the data were processed

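Glomerular RNA of 6 samples, 3 per genotype, was measured by sequencing of polyadenylated RNA in strand-marked libraries, per the labels' protocols. The authors deposited 1 table of raw counts, a row for each Ensembl gene and a column for each sample. Tools listed in the submitters' processing notes, without versions or roles, are HISAT2, StringTie, fastp and edgeR, with build GRCm39; the sources used here do not give the annotation release, strand setting or handling of multiply matching reads. Symbols from a GENCODE M21 table covered 51880 of 57132 rows. That release is on GRCm38, so it served for names, exon lengths, transcripts and overlaps, with no coordinates printed; promoter coordinates are RefSeq's. Stat3 and Stat5a share 72 exon bases on opposite strands.

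Counts were analysed with R 4.3.3 and edgeR 4.0.16: filterByExpr, TMM factors (0.979 to 1.03, which scale the CPM), glmQLFit with robust=TRUE, and Benjamini-Hochberg over 19927 genes. SE is the log2 fold change over the square root of F. Log2 CPM used a prior count of 2. The alternatives were DESeq2 1.42.0, limma 3.58.1 voom with quality weights, other size factors, filters and thresholds, robust=FALSE, a replicate block and each library left out. The test was checked on simulated data. No pair of libraries agreed within sampling noise (chi-square per degree of freedom 20.6 or more). The 9 genes and the lists were chosen with earlier results of these data known. Named were the 9 genes, Setdb2, up to 4 called genes per list by smallest p or, where none passed, the gene with the smallest p, and the 5 genes most like Stat3 and Socs3. This rule also selects 2 genes whose values are not reported here.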

Additional observations from a re-analysis of the deposited data

How the results depend on the processing

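Stat2, Stat3, Stat5b and Socs3 kept their direction under every alternative run, and the calls of Stat3 held under all of them at the threshold of 0.05. The number called among the 9 genes was 4 with DESeq2, voom, other size factors, robust=FALSE, at least 1 CPM in 3 libraries and a threshold of 0.1, 3 without a filter, and 1 at a threshold of 0.01; with single libraries left out it ranged from 1 to 3. Genes called over the whole table numbered 1505, with 2697 in DESeq2, 414 and 2562 at thresholds of 0.01 and 0.1, and 462 to 2039 with single libraries left out. Pathway genes called numbered 24, with 39 in DESeq2, 6 at 0.01, and 7 to 24 with single libraries left out. The log2 ratio of Socs3 to Stat3 differed by -0.77 to -0.27 with single libraries left out. Jak2, at a log2 fold change of -0.01, changed sign with voom (0.034), with the block (0.0030) and with single libraries left out (-0.10 to 0.097), as did Setdb2 with single libraries left out (-0.27 to 0.0024). The difference in mean log2 CPM of Jak2 changed sign with DESeq2 size factors (-0.0012) and with single libraries left out (-0.095 to 0.099). The cause was not tested, beyond fewer samples entering the fits with a library left out.

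Whether equal replicate numbers pair the samples was not settled. The correlations of deviations from the group means were 0.14, 0.11 and 0.057 for equal numbers and -0.15 to 0.057 for unequal ones. Samples 1 and 2 correlated best with their own number. Cre_negative replicate 3 did not, as its correlation with Cre_positive replicate 2 (0.05688) was slightly above that with Cre_positive replicate 3 (0.05682). With the replicate block 1541 genes, 3 of the 9 genes and 27 pathway genes were called, and the ratio of Socs3 to Stat3 differed by -0.57, with 3 of 3 pairs lower (-1.47, -0.10 and -0.15) and a two-sided exact p of 0.25, the smallest that 3 pairs allow. Socs3 (adjusted p = 0.0970), Igf1 (0.0506) and Bcl3 (0.0598) lost their calls with the block. Stat2 kept its call with a smaller adjusted p of 0.00230. Irf9, Mx1, Oas1a, Oasl2 and Usp18 of the interferon list, named outside the rule, gained calls. Depth limits Socs1, at 73 to 111 counts per library, most.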

Other observations

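The prolactin receptor gene Prlr, picked out after its values were seen, was among the most variable genes of the pathway. Its counts for replicates 1, 2 and 3 were 2613, 3224 and 13866 without Cre and 22528, 23360 and 22917 with Cre. The groups did not overlap, but Cre_negative replicate 3 lay nearer to the Cre_positive libraries than to its own group, and the log2 fold change of 1.86 (SE 0.74) did not pass edgeR's test (adjusted p = 0.225). Without that library it was 3.06 (adjusted p = 4.07e-05). Prlr did not pass with any other single library left out (adjusted p between 0.280 and 0.418) or with the replicate block (0.228). It did pass with limma voom. Nfil3, a transcription factor gene on the list of STAT3 and acute-phase targets, was picked out in the same way. It had 403, 507 and 955 counts in Cre_negative and 1250, 1364 and 1213 in Cre_positive libraries, with Cre_negative replicate 3 again the nearest. Its edgeR log2 fold change was 1.10 (SE 0.32, adjusted p = 0.0947), and 1.57 (adjusted p = 0.00176) without that library. Nfil3 did not pass with any other single library left out (adjusted p between 0.112 and 0.242) or with the replicate block (0.0640). It did pass with DESeq2 and with limma voom. For both genes the library whose removal gave a call was the one seen to lie nearest to the Cre_positive libraries.

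Over the 6 libraries and 10616 genes searched, the genes whose log2 CPM was most like that of Stat3 were Cd72 (Pearson r = 0.997), Havcr1 (0.997), Cpt1a (0.996), Clcf1 (0.995) and Ccdc9b (0.995), with Spearman rho between 0.886 and 1. Among those most like Socs3 were Rpa2 (0.997), Ddb1 (0.997), Usp25 (0.994) and Tmem176a (0.993), with rho between 0.943 and 1. In edgeR's test between genotypes Rpa2 (adjusted p = 0.0927), Ddb1 (0.238) and Usp25 (0.193) were not called, and Tmem176a was (0.0378). With 6 libraries that share a genotype contrast and so many genes, values this high are a description. Clcf1, a ligand of the gp130 family, came up in the search for Stat3 and was already on the ligand list.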
